A study of Mus musculus with 6 samples.

Results

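Integrins are adhesion receptors made of 1 alpha and 1 beta chain, and the pairing decides which ligand a cell can hold. Covered here are 10 integrin genes of leukocytes other than Itgae, the gene of CD103: Itgal, Itgb2, Itga4, Itgb1, Itgb3, Itgam, Itgax, Itga6, Itga5 and Itga2. They were chosen by name, with earlier results of these data known. Each symbol was represented by its transcript with the highest mean level over the 6 libraries. All 10 were present among the 24453 symbols of the deposited table, and all 10 were among the 13621 genes tested. Integrins of the beta 2 family bind ICAMs and complement fragments on other cells, and those with the beta 1 chain bind VCAM-1, fibronectin, laminin or collagen. Regulatory T (Treg) cells use such receptors to arrest on blood vessels, to enter tissue and to form contacts with antigen-presenting cells. Surface integrins are kept inactive until talin and kindlin bind the tail of the beta chain.

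Treg cells, CD4+Foxp3+ T cells that restrain immune responses, were sorted by FACS from healthy female C57BL/6 mice, and their total RNA was sequenced. The 3 control libraries carry the genotype label WT Tg, whose wording the labels leave unexplained, and are called WT below. The other 3 libraries are labelled miR-27 Tg. The series describes overexpression of miR-27a limited to Treg cells, with a Foxp3cre allele named in its title. The deposited values carry the name Foxp3cre het miR-27Tg, and what het refers to is not spelled out. Whether every sorted Treg cell carried the overexpression is not given. The driver of the transgene, what the controls carried, the age of the mice and any pooling of animals are not given in the sources used here. Whether the 3 libraries of a group stem from different animals is not stated either. Each p-value therefore reflects the spread among libraries, and that spread may be technical. The question posed by the comparison is how excess miR-27 changes the RNA of Treg cells.

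Counted reads ranged from 37677493 to 42061103 in the WT libraries and from 34437221 to 38080063 in the miR-27 Tg libraries. Correlations of log2 values over genes lay between 0.979 and 0.985 within groups and between 0.97 and 0.98 across groups. Markers of Treg cells were abundant in every library, with summed levels of 8935 to 9851 RPKM in WT and 8171 to 8453 RPKM in miR-27 Tg. Every miR-27 Tg library was thus below every WT library in this sum. RPKM here means reads per kilobase of transcript per 10000000 counted reads. Ctla4, an inhibitory receptor, and Cd4, the lineage coreceptor, were the most abundant of these 6 markers. Ctla4 was 3436 ± 324 RPKM in WT and 2335 ± 234 RPKM in miR-27 Tg (SD, n = 3). Cd4 went the other way, from 1946 ± 85.4 to 2207 ± 88.0 RPKM (SD, n = 3). Of the 6 markers 3 had a positive and 3 a negative log2 fold change. None passed the limma test described below, where 1.03% of all genes did. Summed myeloid markers (16 genes, led by Lyz2 and Tyrobp) were 441, 426 and 821 RPKM in WT, and 566, 2013 and 1209 RPKM in miR-27 Tg, here and below in the order of replicates 1 to 3. Summed dendritic cell markers (6 genes, led by Siglech and Flt3) were 23.3, 88.7 and 160 RPKM in WT and 40.8, 431 and 202 RPKM in miR-27 Tg. CD8 T and NK cell markers (7 genes, led by Cd8b1 and Nkg7) summed to 185 to 243 RPKM in WT and 167 to 303 RPKM in miR-27 Tg. B cell markers (6 genes, led by Cd79b and Cd22) summed to 130 to 164 and 102 to 152 RPKM. Markers of other blood cells thus differed in level between libraries, and the myeloid, dendritic, and CD8 T and NK cell sums were highest in miR-27 Tg replicate 2.

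The microRNA that was overexpressed and its possible pairing sites in the integrin transcripts are shown first. Whether miR-27a binds at these sites was not tested. The mature strand of miR-27a, at chr8:84208727-84208747 on the plus strand of GRCm38 (RefSeq), carries its seed, bases 2 to 8, in capitals. The 3 sites are the matches to this seed in the 3′ UTRs of the integrins, read 5′ to 3′ on the gene's strand, with the 7 matching bases in capitals. Each lies in a window of 25 bases.
miR-27a-3p: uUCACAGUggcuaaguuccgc
Itga4 site: gttactatctcACTGTGAagtctga
Itga5 site: tccccccatgcACTGTGAaggaccc
Itga2 site: ttgcctctttaACTGTGAagaataa
The Itga4 site is at chr2:79328836-79328860 on the plus strand, in a 3′ UTR of 6508 bases. The Itga5 site is at chr15:103345076-103345100 on the minus strand, in a 3′ UTR of 983 bases. The Itga2 site is at chr13:114833773-114833797 on the minus strand, in a 3′ UTR of 3404 bases.

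The search used the letters ACTGTGA on the transcript strand only, in GENCODE transcripts of GRCm38. In all 3 genes the match was followed by an A. Itgal, Itgb2, Itgb1, Itgb3, Itgam, Itgax and Itga6 had no match in any protein-coding transcript, so 3 of 10 integrins held one, against 16.7% (1976) of the 11817 tested genes that could be searched. The deposited models of Itgb1 and Itga6 ran 379 and 1656 bases beyond the searched 3′ ends, and those stretches were not searched. The Itga2 site lies beyond the deposited Itga2 model, so no read counted for Itga2 covers it. The RNA levels of the 3 genes with a match differed in direction: as given below, Itga2 had a negative, Itga4 a near-zero and Itga5 a positive log2 fold change, and none passed the test. Over all searched genes, the median log2 fold change was -0.06 with a match and 0.00 without. Of the 1976 genes with a match 8 rose and 22 fell in miR-27 Tg. Of the 9841 genes without one, a far larger group, 35 rose and 52 fell. A match is a string of letters in the transcript and no evidence of binding.

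The levels of the 10 integrins ranged from above 1000 RPKM down to a few. Itgb2 had the highest mean over the 6 libraries, 1679 RPKM, followed by Itgal at 1275 RPKM and Itga4 at 764 RPKM. Itgb1 (385 RPKM) and Itga6 (347 RPKM) followed, and their ranges over libraries overlapped. Itgb3 stood alone at 117 RPKM. Itga5 (25.1 RPKM), Itgax (15.9 RPKM), Itgam (10.4 RPKM) and Itga2 (3.56 RPKM) closed the order, each overlapping its neighbour. Every other pair of neighbours was separated, with the lowest library of one above the highest library of the other. These are per-length values, so they can be compared between genes.

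**Figure D1:**
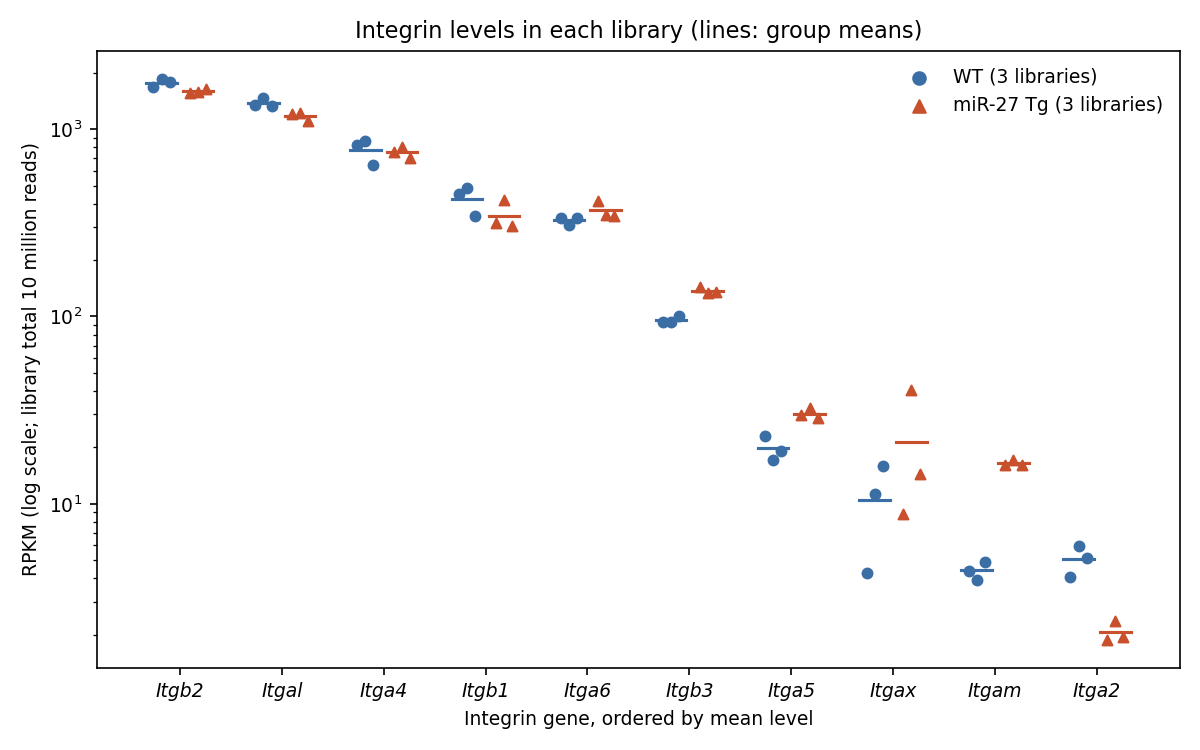
RPKM of the 10 integrin genes (log axis) in each of the 3 WT libraries (circles) and 3 miR-27 Tg libraries (triangles), ordered by mean level, with lines at the group means. Itgb2 and Itgal lie above 1000 RPKM in all 6 libraries, and the groups are farthest apart for Itgam (4.41 against 16.4 RPKM on average).

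Of the 10 integrins, Itgam and Itgb3 rose in miR-27 Tg, none fell and 8 did not pass the test (limma on log2(RPKM + 1), Benjamini-Hochberg adjusted p under 0.05 over all genes tested). Over all genes tested, 1.03% passed, 0.374% as higher and 0.653% as lower. The fold changes of the 10 were positive for 5 and negative for 5, with a median of 0.07, beside -0.01 over all genes tested. An unadjusted p under 0.05 was reached by 5 of the 10, 3 higher and 2 lower, where 13% of all genes reached it. In 7 of the 10 the groups did not overlap, 4 higher and 3 lower, against 18.5% of all genes. Since the 10 were chosen with earlier results of these data known, these counts are no evidence of an excess among integrins. Of the 6 fits with 1 library left out, Itgam lost its call in 3 and Itgb3 in all 6. Their log2 fold changes moved little in these fits, as given with their values. Fewer genes overall were called in these fits too.

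**Figure D2:**
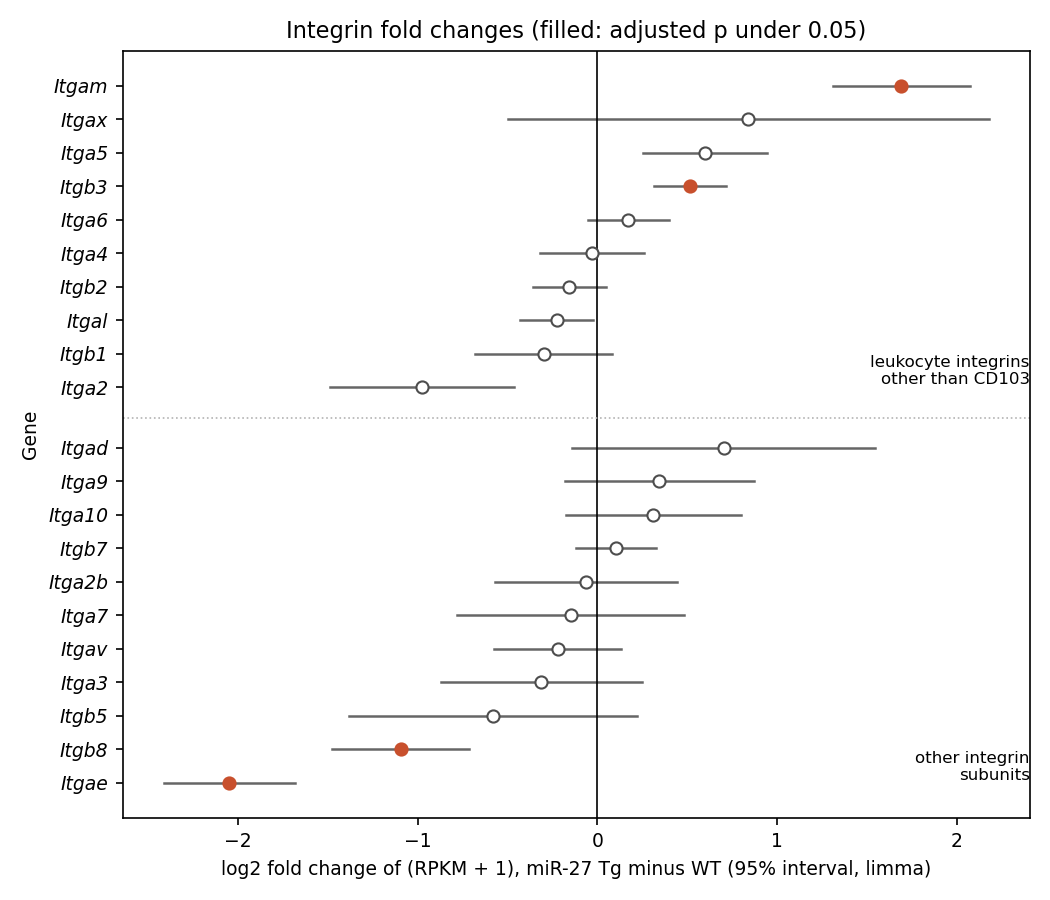
Log2 fold change of (RPKM + 1), miR-27 Tg minus WT, with its 95% interval from limma, for the 10 integrins (top) and the 11 other integrin subunits tested (bottom); filled points have an adjusted p under 0.05. Itgam (1.69) and Itgb3 (0.52) are filled on the higher side, and Itgae (-2.05) and Itgb8 (-1.09) on the lower side.

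Within the beta 2 family the most abundant RNAs were those of LFA-1, the receptor of ICAM-1 that T cells use to arrest and to form synapses. Its beta chain is Itgb2 (chromosome 10, 77530348 to 77565674, plus strand), which was 1669, 1856 and 1786 RPKM in WT and 1551, 1577 and 1636 RPKM in miR-27 Tg. Its alpha chain is Itgal (chromosome 7, 127296260 to 127335137, plus strand), which was 1340, 1462 and 1323 RPKM in WT and 1197, 1215 and 1112 RPKM in miR-27 Tg. For both chains every miR-27 Tg library lay below every WT library, by a small margin. For Itgb2 the log2 fold change was -0.16 (SE 0.09, 95% interval -0.36 to 0.05, limma adjusted p = 0.538). For Itgal it was -0.23 (SE 0.09, 95% interval -0.43 to -0.02, limma adjusted p = 0.322). Neither chain passed the test, and these intervals reach down to falls of that size.

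The proportion of the 2 chains of LFA-1 overlapped between the groups. As a log2 ratio, Itgal to Itgb2 was -0.36 ± 0.06 (SD, n = 3) in WT against -0.44 ± 0.11 (SD, n = 3) in miR-27 Tg (difference -0.07, exact permutation test, two-sided, p = 0.4, adjusted over 4 ratios 0.533). The difference was -0.01 without miR-27 Tg replicate 3 and lay between -0.05 and -0.11 with any other library left out. The smallest p that 3 against 3 libraries allow is 0.1. Itgal, Itgam and Itgax together reached 0.786 ± 0.0292 times the Itgb2 level in WT and 0.764 ± 0.0580 times in miR-27 Tg (SD, n = 3), with overlapping groups.

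Itgam encodes CD11b, the alpha chain of Mac-1 and a marker of myeloid and NK cells. It lies on chromosome 7 from 128062640 to 128118491 (plus strand), downstream of Itgal and next to Itgax. Its level was 4.40, 3.94 and 4.91 RPKM in WT and 16.0, 17.1 and 16.2 RPKM in miR-27 Tg. All 3 miR-27 Tg libraries were high and close to one another, and the groups did not overlap. The mean rose from 4.41 ± 0.487 to 16.4 ± 0.583 RPKM (SD, n = 3), 3.72-fold. On the log2(RPKM + 1) scale the change was 1.69 (SE 0.16, 95% interval 1.31 to 2.07, limma adjusted p = 0.0118), and it was 1.19 with a pseudocount of 5.

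The reads behind Itgam were few for a gene of its length: 86, 72 and 86 in WT against 284, 274 and 259 with the transgene. Counting error alone would give an SD of 0.489 RPKM in WT and 0.996 RPKM in miR-27 Tg, so the libraries of a group spread no more than counting allows. Itgam fell short of the threshold without WT replicate 1 or 3 (limma adjusted p = 0.0535 and 0.053), when miR-27 Tg replicate 3 was left out (0.0703) and with no filter on low values (0.0536), while its log2 fold change stayed between 1.63 and 1.76 with any library left out. Of its annotated exonic bases, 73.7% are shared with Gm49368, a protein-coding model on the same strand that runs from 128062683 to 128128160, so reads of the 2 genes cannot be told apart there. In bulk RNA, more cells that carry a transcript and more transcript in each cell cannot be told apart either.

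The myeloid markers differed among themselves in how they ran beside Itgam. WT replicate 3 held more summed myeloid marker RNA than miR-27 Tg replicate 1 (821 against 566 RPKM), while its Itgam level was 4.91 against 16.0 RPKM. That sum was carried by Lyz2, Tyrobp and Mpeg1, and single markers split in this pair of libraries: 6 of 16 were higher in miR-27 Tg replicate 1, 9 were lower and 1 was at 0 in both. The 6 were S100a8, S100a9, Lyz1, Csf3r, Fcgr3 and Clec7a, named after their values were seen. S100a9, a granulocyte protein, was 42.6, 5.88 and 6.14 RPKM in WT, and 57.2, 170 and 57.1 RPKM in miR-27 Tg. Its partner S100a8 was 40.5, 4.60 and 6.17 RPKM in WT, and 46.1, 115 and 26.3 RPKM in miR-27 Tg. For S100a9 the groups were apart, with WT replicate 1 close to the miR-27 Tg libraries. Among the miR-27 Tg libraries the marker sum ranged from 566 to 2013 RPKM and Itgam only from 16.0 to 17.1 RPKM. Of the 14 myeloid markers tested, none passed the test, 13 had a positive log2 fold change and 10 had an unadjusted p under 0.05, with a median log2 fold change of 1.10. In 5 of the 14 the groups did not overlap, and all 5 were higher in miR-27 Tg. Over all genes tested, 13% had an unadjusted p under 0.05 (limma), and in 18.5% the groups did not overlap. For 932 of the 13621 genes tested the groups did not overlap with miR-27 Tg higher. The marker lists were chosen with earlier results of these data known, so these counts do not measure an excess. Lyz2, the lysozyme of macrophages and granulocytes, was 131, 91.9 and 277 RPKM in WT and 196, 501 and 405 RPKM in miR-27 Tg. Tyrobp, a signalling adaptor of myeloid and NK cells, was 32.3, 86.4 and 167 RPKM in WT and 51.7, 415 and 250 RPKM in miR-27 Tg. Of the 6 CD8 T and NK cell markers tested, 3 had a positive and 3 a negative log2 fold change, and 4 had an unadjusted p under 0.05, 2 in each direction. Cd8b1, a chain of the CD8 coreceptor and the most abundant of them, was 60.3, 91.5 and 92.0 RPKM in WT, and 92.7, 170 and 145 RPKM in miR-27 Tg (log2 fold change 0.72, limma adjusted p = 0.258). Nkg7, a granule protein, was the 1 marker that passed, as lower (log2 fold change -0.93, limma adjusted p = 0.0257, and 0.0477 to 0.107 with 1 library left out). The part of other cells in the rise of Itgam beyond these values was not tested.

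Itgax encodes CD11c, the alpha chain that marks dendritic cells (chromosome 7, 128129568 to 128150657, plus strand). It was 4.29, 11.3 and 16.0 RPKM in WT and 8.81, 40.7 and 14.4 RPKM in miR-27 Tg. The groups overlapped, and 1 library, miR-27 Tg replicate 2, stood far above the rest. Mean levels were 10.5 ± 5.90 and 21.3 ± 17.0 RPKM (SD, n = 3). Itgax had a log2 fold change of 0.84 (SE 0.58, 95% interval -0.50 to 2.18, limma adjusted p = 0.625), and it was 0.25 without miR-27 Tg replicate 2 and 0.35 without WT replicate 1. The library with the least Itgax, WT replicate 1, also had the lowest summed dendritic cell markers, and the library with the most had the highest. Siglech, a receptor of plasmacytoid dendritic cells, spanned 14.4 to 331 RPKM over the same libraries, and Flt3, a growth factor receptor of dendritic cells and their precursors, 3.08 to 34.2 RPKM. The part of dendritic cells in the Itgax values was not tested further.

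**Figure D3:**
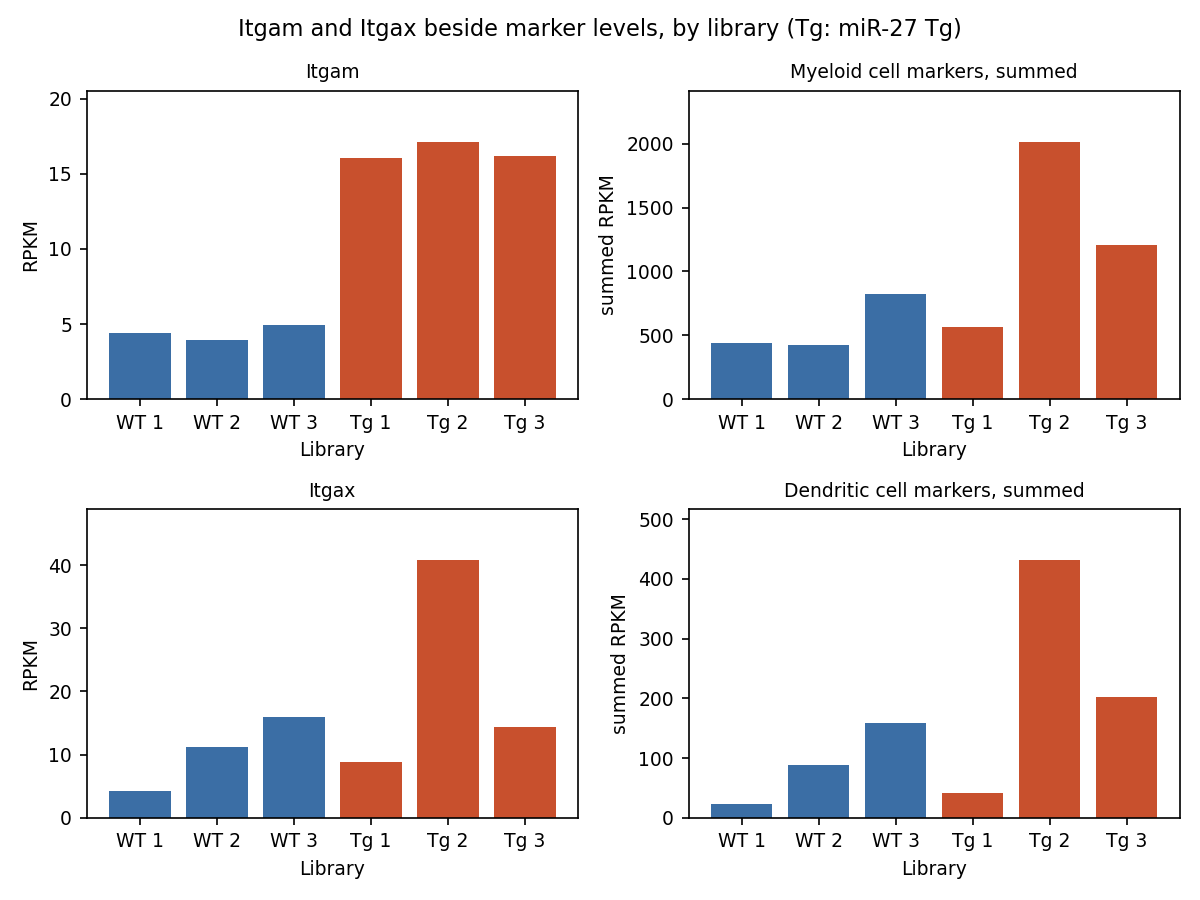
Bars give, for each library, the RPKM of Itgam and Itgax (left) and the summed RPKM of 16 myeloid and 6 dendritic cell markers (right). Itgam is between 16.0 and 17.1 RPKM in all 3 miR-27 Tg libraries while the myeloid sum there varies from 566 to 2013 RPKM, and both Itgax and the dendritic cell sum peak in miR-27 Tg replicate 2.

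The share of Itgam among 3 alpha chains that pair with beta 2 (Itgal, Itgam and Itgax) was 0.326%, 0.266% and 0.365% in WT, while in miR-27 Tg it was 1.31%, 1.34% and 1.42%. The groups were apart, with means of 0.319% ± 0.0497 and 1.36% ± 0.0531 (SD, n = 3). The difference of 1.04 percentage points had an exact permutation p of 0.1 (two-sided, adjusted over 4 ratios 0.2), the smallest this design allows. Itgal made up nearly all of the summed level of these chains in every library.

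Itga4, the alpha chain of VLA-4 (with beta 1) and of the gut-homing receptor LPAM-1 (with beta 7), lies on chromosome 2 from 79255426 to 79333114 (plus strand). It was 818, 865 and 640 RPKM in WT and 751, 805 and 705 RPKM in miR-27 Tg. The groups overlapped fully, with means of 775 ± 119 and 753 ± 49.9 RPKM (SD, n = 3). Itga4 had a log2 fold change of -0.03 (SE 0.13, 95% interval -0.32 to 0.26, limma adjusted p = 0.958), and its sign turned with median scaling of the libraries (0.0026), so no direction is given. Of the annotated exonic bases of Itga4, 11.5% are shared with Cerkl on the opposite strand, and reads were counted on both strands.

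Itgb1, the common beta chain of the VLA receptors (chromosome 8, 128685654 to 128733579, plus strand), was 448, 484 and 342 RPKM in WT and 315, 416 and 303 RPKM in miR-27 Tg. WT replicate 3 fell among the miR-27 Tg libraries, so the groups overlapped. Itgb1 had a log2 fold change of -0.30 (SE 0.16, 95% interval -0.68 to 0.08, limma adjusted p = 0.525), and -0.11 with array weights. With 1 library left out it ranged from -0.45 (WT replicate 3) to -0.20 (WT replicate 2). Itga4 and Itgb1 were both low in WT replicate 3 and both high in WT replicate 2. The log2 ratio of Itga4 to Itgb1 was therefore tight in WT, 0.87 ± 0.03, and higher and wider in miR-27 Tg, 1.14 ± 0.16 (SD, n = 3), with no overlap (difference 0.27, exact permutation p = 0.1, two-sided, adjusted over 4 ratios 0.2).

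Itgb7, the beta chain that Itga4 shares with Itgae, was the most abundant of the other integrin subunits, at 1899 ± 156 RPKM in WT and 2037 ± 44.6 RPKM in miR-27 Tg (SD, n = 3; log2 fold change 0.10, 95% interval -0.12 to 0.33, limma adjusted p = 0.733). The log2 ratio of Itga4 to Itgb7 was -1.30 ± 0.34 in WT against -1.44 ± 0.06 in miR-27 Tg (SD, n = 3; difference -0.13, exact permutation p = 0.6, two-sided, also 0.6 adjusted over 4 ratios). WT replicate 3 had the lowest ratio, -1.67, and WT replicate 2 the highest, -0.999, with all miR-27 Tg libraries between them.

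Alpha chains that take beta 1 to the extracellular matrix differed widely in level. Itga6, part of a laminin receptor (chromosome 2, 71786939 to 71858427, plus strand), was 335, 309 and 334 RPKM in WT and 412, 349 and 345 RPKM in miR-27 Tg. All miR-27 Tg libraries were higher, but 2 of them only by a few percent. Itga6 had a log2 fold change of 0.17 (SE 0.10, 95% interval -0.05 to 0.40, limma adjusted p = 0.537). Leaving out miR-27 Tg replicate 1 brought it to 0.09.

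Itga6 RNA comes in alternative 3′ forms that give the protein different cytoplasmic tails, and the deposited table holds both. The form with the extra exon (exon 25 of 26, 130 bases, at chr2:71853534-71853663 on the plus strand) ends translation within it. The coding part of that exon, 105 bases from 71853534 to 71853638, is shown because its presence sets the tail.
Itga6 extra exon: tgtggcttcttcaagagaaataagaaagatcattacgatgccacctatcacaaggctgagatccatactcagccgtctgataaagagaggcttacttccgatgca
The reads assigned to the form with the exon exceeded those of the form without it by 211, 156 and 149 in WT, and with the transgene by 209, 146 and 160. Per base this was 103% ± 12.8 of the density over the rest of the transcript in WT against 101% ± 5.86 in miR-27 Tg (SD, n = 3; exact permutation p = 0.9, two-sided). The exon was thus covered as densely as the rest of Itga6 in both groups, with a counting error of 7.16 to 8.27 percentage points per library.

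Itga5, the alpha chain of the classical fibronectin receptor (chromosome 15, 103344286 to 103366791, minus strand), was 23.1, 17.2 and 19.2 RPKM in WT and 29.8, 32.6 and 28.6 RPKM in miR-27 Tg. Every miR-27 Tg library was above every WT library. The means were 19.8 ± 2.99 and 30.3 ± 2.08 RPKM (SD, n = 3). The log2 fold change of 0.60 (SE 0.15, 95% interval 0.25 to 0.94) had an unadjusted p of 0.00402 and a limma adjusted p of 0.131, so Itga5 did not pass over all genes. Its log2 fold change stayed between 0.50 and 0.71 with any library left out.

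Itga2, the alpha chain of a collagen receptor (chromosome 13, 114835912 to 114932041, minus strand), was 4.09, 5.95 and 5.14 RPKM in WT and 1.88, 2.36 and 1.94 RPKM in miR-27 Tg. The groups were apart, with means of 5.06 ± 0.933 and 2.06 ± 0.260 RPKM (SD, n = 3). They rested on 72, 98 and 81 reads in WT and 30, 34 and 28 reads in miR-27 Tg. The log2 fold change was -0.98 (SE 0.22, 95% interval -1.49 to -0.46, limma adjusted p = 0.102). It was -0.51 with a pseudocount of 5, and the adjusted p was 0.0456 when the prior variance was fitted without an intensity trend. Together Itga2, Itga4, Itga5 and Itga6 amounted to 2.68 ± 0.226 times the Itgb1 level in WT, against 3.40 ± 0.486 times in miR-27 Tg (SD, n = 3). The groups overlapped, since miR-27 Tg replicate 2 (2.86) lay below WT replicate 3 (2.92).

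Itgb3 pairs with alpha V to bind vitronectin and other matrix proteins, and with alpha IIb on platelets to bind fibrinogen. It lies on chromosome 11 from 104608000 to 104670471 (plus strand). Its level was 93.9, 93.4 and 100.5 RPKM in WT and 143, 134 and 135 RPKM in miR-27 Tg. Each group was tight, and the highest WT library stood well below the lowest miR-27 Tg library. The mean rose from 95.9 ± 3.95 to 137 ± 5.25 RPKM (SD, n = 3), 1.43-fold, a log2 fold change of 0.52 (SE 0.09, 95% interval 0.31 to 0.72, limma adjusted p = 0.0437). With any 1 of the 6 libraries left out Itgb3 did not pass (limma adjusted p 0.103 to 0.141), while its log2 fold change stayed between 0.48 and 0.55. It also missed the threshold with no filter on low values (0.0651) and with no intensity trend (0.0712).

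No partner chain of Itgb3 passed the test. Itgav, the alpha V chain, was 61.1 ± 11.3 RPKM in WT and 51.9 ± 5.15 RPKM in miR-27 Tg (SD, n = 3; log2 fold change -0.22, limma adjusted p = 0.628). The level of Itgb3 over that of Itgav was 1.28, 1.58 and 1.97 in WT, and 2.56, 2.49 and 2.94 with the transgene, so the groups were apart. This ratio was formed after its values were seen and was not tested. Platelet and megakaryocyte markers (8 genes) summed to 16.5, 25.4 and 25.2 RPKM in WT and 18.4, 20.6 and 23.3 RPKM in miR-27 Tg, with overlapping groups and Gp6 at 0 in all 6 libraries. Gp1ba, a platelet receptor of von Willebrand factor, was 9.42 to 15.1 RPKM, and Itga2b, the alpha IIb chain, 5.80 to 8.96 RPKM over the 6 libraries. The part of platelets in the Itgb3 values was not tested.

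**Figure D4:**
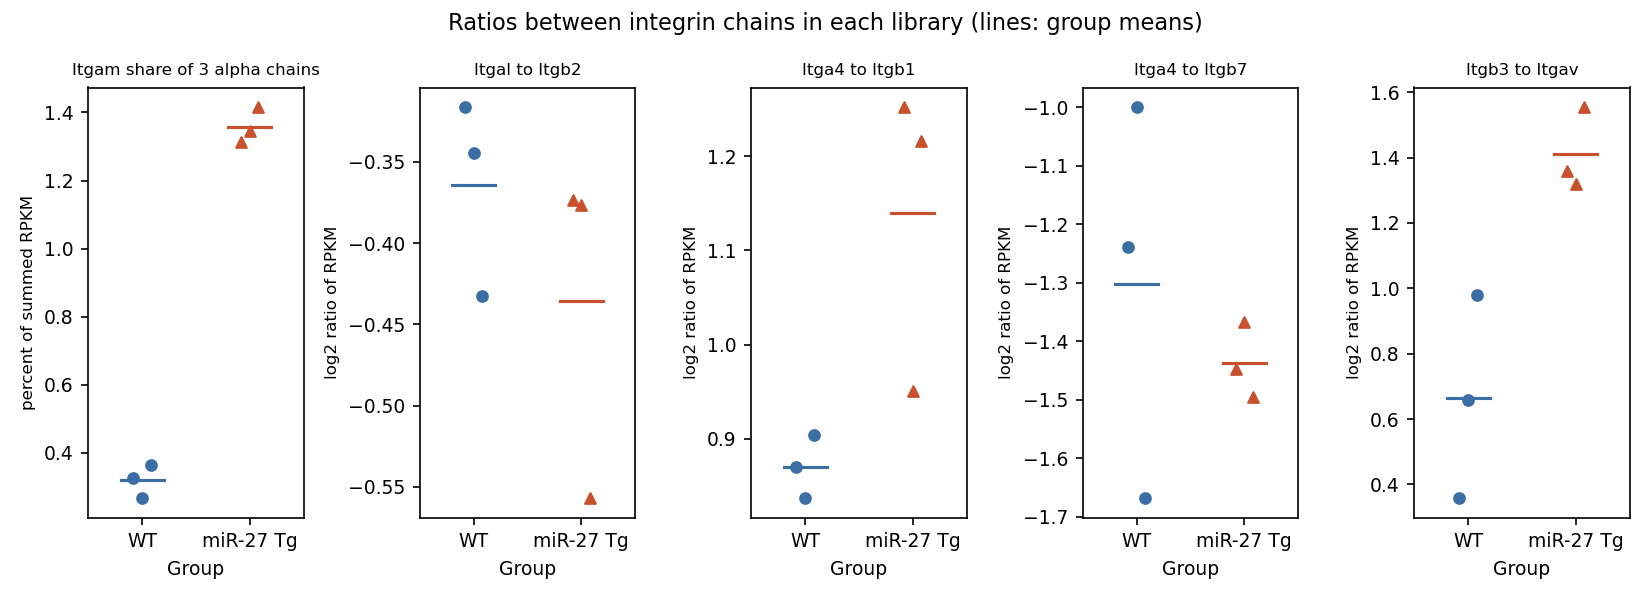
Ratios of RPKM between integrin chains in each of the 3 WT (circles) and 3 miR-27 Tg libraries (triangles), with lines at the group means; the first panel is the percent of Itgam among Itgal, Itgam and Itgax, and the others are log2 ratios on axes that do not start at 0. The groups are apart for the Itgam share, Itga4 to Itgb1 and Itgb3 to Itgav, and overlap for Itgal to Itgb2 and Itga4 to Itgb7.

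The genes most like the called integrins over the 6 libraries were found by the Euclidean distance of centred log2(RPKM + 1) values. Nearest to Itgb3 were Atp10a (distance 0.129), Gcm2 (0.142) and Tgfb3 (0.142). Atp10a, a phospholipid flippase, was nearly identical to Itgb3 in level too, at 97.7 ± 3.19 RPKM in WT and 138 ± 2.08 RPKM in miR-27 Tg (SD, n = 3; log2 fold change 0.49, limma adjusted p = 0.0438). Gcm2 and Tgfb3 were at a few RPKM or less and did not pass the test. Nearest to Itgam were Acvrl1 (0.338), Mir17 (0.377) and Adgrg3 (0.468). Acvrl1, also called ALK1, which binds BMPs, rose from 15.6 ± 2.57 to 46.6 ± 3.40 RPKM (SD, n = 3; log2 fold change 1.53, limma adjusted p = 0.0118). Mir17 is a microRNA precursor of only 83 bases, so its level rests on few reads. It rose from 21.3 ± 1.17 to 71.5 ± 12.7 RPKM (SD, n = 3), a log2 fold change of 1.69 (limma adjusted p = 0.0115). Adgrg3, an adhesion G protein-coupled receptor, also rose, with a log2 fold change of 1.53 (limma adjusted p = 0.0326). Over 6 libraries a small distance says only that the group difference and the spread were similar.

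Among the 16 other integrin subunits, 11 were tested, of which 2 fell and none rose. Over all genes tested, 0.653% passed as lower and 0.374% as higher. Itgae, the alpha chain of CD103 that binds E-cadherin, fell from 331 ± 60.7 to 78.8 ± 11.1 RPKM (SD, n = 3; log2 fold change -2.05, limma adjusted p = 0.00534). It missed the threshold without WT replicate 3 (limma adjusted p = 0.053) and with no filter on low values (0.0700). Itgb8, the beta chain that with alpha V releases active TGF-beta, fell from 42.6 ± 8.30 to 19.2 ± 1.26 RPKM (SD, n = 3; log2 fold change -1.09, limma adjusted p = 0.0315). It missed the threshold with each of the 6 libraries left out in turn (limma adjusted p 0.053 to 0.123) and with no filter on low values (0.167). The median log2 fold change of the 11 was -0.15.

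Of 32 genes that switch integrins on or tie them to the cytoskeleton 27 were tested. None passed (limma), where 1.03% of all genes did, and none had an unadjusted p under 0.05, where 13% of all genes did. In 3 the groups did not overlap, 2 higher and 1 lower, against 18.5% of all genes. The median log2 fold change of the 27 was 0.04. Values of these 27 ran from -0.22 to 0.33. The other 5 (Tln2, Fermt1, Fermt2, Parvb and Bcar1) were under the level filter and have no test. Of these Tln2, the second talin gene, had 65, 13 and 78 reads in WT against 4, 7 and 4 with the transgene, with the groups apart. Parvb, a parvin, had 1, 0 and 1 reads in WT against 3, 15 and 6 with the transgene. Both were singled out after their values were seen. Rap1b, a small GTPase that promotes talin binding, was the most abundant at 1265 ± 181 RPKM in WT and 1350 ± 65.9 RPKM in miR-27 Tg (SD, n = 3; log2 fold change 0.10). Fyb (ADAP) had a log2 fold change of -0.07, and Rassf5 (RAPL), a Rap1 effector that binds the LFA-1 alpha chain, one of -0.09. Flna, the actin crosslinker filamin A that competes with talin for beta tails, had one of 0.18 (95% interval -0.02 to 0.39, limma adjusted p = 0.453).

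Of 22 ligands and membrane partners of integrins 17 were tested, and none passed the test (limma), where 1.03% of all genes did. An unadjusted p under 0.05 was reached by 8 of the 17, 5 higher and 3 lower, where 13% of all genes reached it. This list too was chosen with earlier results of these data known, so its counts do not measure an excess. In 7 the groups did not overlap, against 18.5% of all genes. Thy1, a surface protein of T cells that binds beta 3 and beta 2 integrins, was 1891 ± 255 RPKM in WT and 2305 ± 82.2 RPKM in miR-27 Tg (SD, n = 3; log2 fold change 0.29, 95% interval 0.02 to 0.57, limma adjusted p = 0.338). Of the tetraspanins, which hold integrins in membrane clusters, none passed. Log2 fold changes were 0.10 for Cd53 (95% interval -0.19 to 0.39) and -0.09 for Cd37 (-0.33 to 0.14), both with overlapping groups. Cd82 (-0.38, 95% interval -0.67 to -0.08, limma adjusted p = 0.248) and Cd9 (0.39, 95% interval 0.17 to 0.61, limma adjusted p = 0.123) had groups that did not overlap. The remaining tetraspanins, with overlapping groups, were Cd63 (0.63), Cd81 (-0.16) and Cd151 (0.03). The median log2 fold change of the 17 was 0.03.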

How the data were processed

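RPKM values of 34711 RefSeq transcripts of mm10 in all 6 libraries were deposited by the authors as a single file. Per the file headers, HOMER counted exon reads on both strands and set each library total to 10000000 reads. STAR 2.2.0c and HOMER, and as builds both GRCm38 and mm10, are given per the submitters' processing notes. Values of low genes were whole multiples of 1 read, which gave read numbers (100% of values whole within 0.1 read, on transcripts of 200 to 4000 bases). One transcript per symbol was kept (highest mean RPKM). Genes whose RPKM averaged 1 or more were tested with limma 3.58.1 (R 4.3.3) on log2(RPKM + 1), with an intensity trend, no block and Benjamini-Hochberg adjustment. A fold change on this scale understates the change of low genes. Ratios were tested with exact permutation tests in SciPy 1.17.1. The fit was tested on simulated data with independent normal noise. That simulation does not cover variation shared between libraries, changes as small as that of Itgb3 or genes as low as Itga2.

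Named by rule are all 10 integrins, the 3 genes nearest to each called integrin, and of each marker list the 2 most abundant genes. Of each other gene list, the rule takes every gene past the threshold and the 4 most abundant. Further genes were named outside this rule, such as Tln2, Parvb, single myeloid markers and other integrin ligands and partners, some after their values were seen. The integrins and lists were chosen with earlier results of these data known. Alternatives covered the pseudocount (0.1 and 5), the filter, the scaling, the transcript, library weights, a replicate block and leaving out each library. MicroRNA sequences are RefSeq's, and transcript sequences and exon overlaps come from GENCODE, both on GRCm38.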

Additional observations from a re-analysis of the deposited data

How the results depend on the processing

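Over the 10 integrins, 159 alternative fits were made; 141 kept direction and side of the threshold, 12 lost the call, 1 gained it and 5 changed sign. The cause of each change was not tested. Leaving out a library leaves fewer samples. No filter means more genes tested and a prior variance fitted over all of them. The unadjusted limma p of Itgam was 7.1e-06 in the main fit and 9.2e-05 with no filter. Genes called higher numbered 51, and 22 with no filter on low values, 81 with array weights and 3 to 14 with 1 library left out. Genes called lower numbered 89, and 15, 144 and 1 to 44 under the same settings. Integrins past the threshold numbered 2, and 0 with no filter by limma (where 5 of the 10 had an unadjusted p under 0.05) and 0 to 1 with 1 library left out (the 1 being Itgam; 4 to 6 unadjusted). Other integrin subunits past it numbered 2 (Itgae and Itgb8). With no filter neither passed, and the 1 that did was Itgb6, which had 0 reads in WT and 1 per library with the transgene. With 1 library left out the number was 0 to 1, the 1 being Itgae. Itgb3 kept its log2 fold change of 0.52 but lost its call with no filter and with no intensity trend, and ranged from 0.48 to 0.55 with 1 library left out. Itgam lost its call at 1.69 with no filter, and ranged from 1.63 to 1.76 with 1 library left out. Itga2 gained a call at -0.98 with no intensity trend. The log2 fold change of Itga4 was 0.0026 with median scaling, 0.088 with array weights and -0.16 to 0.056 with 1 library left out. The difference in the log2 ratio of Itga4 to Itgb7 ranged from -0.32 to 0.017 with 1 library left out. Itga2 has no value under a mean RPKM of at least 5. 

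With the replicate number as a replicate block, 91 genes were called higher and 185 lower. Correlations of the deviations of same-numbered libraries were 0.37, 0.10 and 0.04. WT replicate 1 correlated best with its own number and WT replicates 2 and 3 did not. The labels do not say whether the numbers mark pairs, and these values cannot settle it. No integrin changed its call under the replicate block.

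With 3 libraries a group, the exact tests of ratios cannot go below 0.1. Itga2 and Itgam rest on under 300 reads a library. RNA levels do not show surface protein, pairing or activation of integrins.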
